A study of Mus musculus with 12 samples.

Results

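The genes of the Hedgehog pathway were followed in hair follicle stem cells (HFSCs), the bulge cells from which the hair follicle regrows. The members are Shh, Gli1, Gli2, Gli3, Ptch1, Smo, Hhip, Sufu and Gas1. They were chosen by name for their place in the pathway, with earlier results of these data known, and matched by gene symbol. These are 9 of the 17885 genes in the table of control and Eed iKO HFSCs and 9 of the 21915 genes in the hair cycle table. All 9 passed the filter on low values in both tables. The filter left 15008 genes of the first table and 13457 of the second for testing.

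HFSCs were sorted by FACS from mouse back skin as cells positive for EpCAM and CD34, high for α6-integrin and without Sca1, and their total RNA was sequenced in 12 libraries, 3 for each of 4 groups. All mice were C57BL/6J. The anagen group came from wildtype mice at postnatal days 28 to 30, when hair follicles grow, and the telogen group from wildtype mice at postnatal days 50 to 52, when they rest. The control group is labelled wildtype and the Eed iKO group Eed -/-, both at postnatal day 70. Eed iKO mice are K15-CrePGR; Eed fl/fl. In them RU-486 activates a Cre recombinase driven by the promoter of keratin 15, a bulge keratin, and the floxed gene encodes EED, a core subunit of the repressive chromatin complex PRC2. RU-486 at 10 mg/ml in ethanol was put on shaved back skin once a day, 100 µl each time, for 7 days, and control mice received ethanol. The study describes the control and Eed iKO libraries as biological replicates from more than one litter. For the hair cycle it speaks of several animals of each age, and the sources used here do not say which animals went into which library.

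Hedgehog ligands such as Sonic hedgehog bind the receptor Patched on the receiving cell. Unbound Patched holds the transmembrane protein Smoothened inactive, and binding releases it, so that GLI transcription factors are no longer held back or cut into repressors and instead activate target genes. Gli1, Ptch1 and Hhip are textbook targets of the pathway as well as parts of it, and their mRNA is widely used as a readout of signalling. In skin, Sonic hedgehog from the growing follicle is known for its role in driving hair follicle growth.

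The deposited values are here called normalized counts. In the Eed iKO table they are whole numbers per gene, here called reads, divided by a constant for each library. The values do not show whether these were counted reads or estimates rounded to whole numbers. In the hair cycle table they are estimated counts that the authors normalized. Reads recovered from the steps between the values came to 33269583 to 57063586 per library in the Eed iKO table. The reads behind the hair cycle libraries are not known, and their normalized counts summed to between 11370984 and 13186648 per library. All 11 HFSC markers passed the filter in both tables. In the hair cycle table the summed markers ranged from 236751 to 626821 in telogen and from 551579 to 663890 in anagen, and the lowest value was that of telogen replicate 1. In bulk RNA, fewer cells of a type and less RNA per cell cannot be told apart.

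The mRNA of 4 members differed between anagen and telogen, and the sequences before a start of 3 of them, Ptch1, Gli2 and Gli3, are shown, since the promoter table used here held no entry for the fourth, Gli1. All 3 sequences are rich in CG dinucleotides, as in the CpG islands found at many promoters. Each run holds the 250 bases before the gene's start in RefSeq, on GRCm38.p6, read 5′ to 3′ on the strand of the gene, with every CG in capitals. That of Ptch1 is chr13:63565736-63565985 on the minus strand, that of Gli2 is chr1:119053620-119053869 on the minus strand, and that of Gli3 is chr13:15463473-15463722 on the plus strand.
Ptch1: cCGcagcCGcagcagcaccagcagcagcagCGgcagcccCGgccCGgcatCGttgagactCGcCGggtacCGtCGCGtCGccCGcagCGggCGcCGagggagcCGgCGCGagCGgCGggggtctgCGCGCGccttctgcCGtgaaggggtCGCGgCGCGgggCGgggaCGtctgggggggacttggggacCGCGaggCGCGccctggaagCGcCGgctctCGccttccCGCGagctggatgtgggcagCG
Gli2: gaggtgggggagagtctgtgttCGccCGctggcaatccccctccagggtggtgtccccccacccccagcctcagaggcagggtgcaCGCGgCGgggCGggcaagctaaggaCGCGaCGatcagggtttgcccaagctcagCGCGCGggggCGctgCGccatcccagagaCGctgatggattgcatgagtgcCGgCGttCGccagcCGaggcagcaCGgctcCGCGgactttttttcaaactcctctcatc
Gli3: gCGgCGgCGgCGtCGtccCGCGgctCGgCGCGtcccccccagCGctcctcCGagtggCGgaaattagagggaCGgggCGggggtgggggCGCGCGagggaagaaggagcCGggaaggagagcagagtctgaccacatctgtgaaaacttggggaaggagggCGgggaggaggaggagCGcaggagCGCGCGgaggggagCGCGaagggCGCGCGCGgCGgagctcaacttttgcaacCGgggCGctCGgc
A RefSeq promoter was found for 7 of the 9 members, all but Shh and Gli1. The region of Ptch1 held 41 CG dinucleotides, more than 98.9% of the 32851 promoters of this length. It lies upstream of one Ptch1 transcript but inside the gene, because other Ptch1 transcripts start further away. The Gli3 region likewise lies inside the Gli3 gene, downstream of the start of other Gli3 transcripts. The Gli3 region held 34 and the Gli2 region 22, and the median of all promoters was 6. The other members were spread, with 28 in Hhip, 15 in Smo, 10 in Gas1 and 8 in Sufu. The letters GACCACCCA, a form of the GLI binding motif searched on both strands, occurred in 0 of these 7 regions and in 0.225% of all promoters of this length. The closest match in the 7 regions differed by 2 to 3 letters.

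The anagen and telogen libraries address how the genes differ between activated and quiescent HFSCs. The mice of these groups also differed in age, which cannot be told apart from the phase of the hair cycle. Of the 9 members, 4 differed at an adjusted p under 0.05, where 11.6% of all genes tested did. Ptch1, Gli1 and Gli2 were higher in anagen, as were 7.22% of all genes tested, and Gli3 was lower, as were 4.35%. Ptch1, the receptor, rose 4.19-fold, while Smo, the protein it holds inactive, had a fold change of 1.16 that did not pass the test. The libraries of both groups did not overlap for 5 of the 9 members, where 33.3% of all genes tested did not, and 5 had an unadjusted p under 0.05, where 27.3% of all genes tested did. The median log2 fold change of anagen over telogen was 0.74 over the 9 members and 0.01 over all genes tested. Fold changes are differences between group means of log2(normalized count + 1), so they can be larger or smaller than the ratio of mean counts. The added 1 shrinks them at low counts. They were tested with limma, with Benjamini-Hochberg adjustment over all genes tested.

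**Figure D1:**
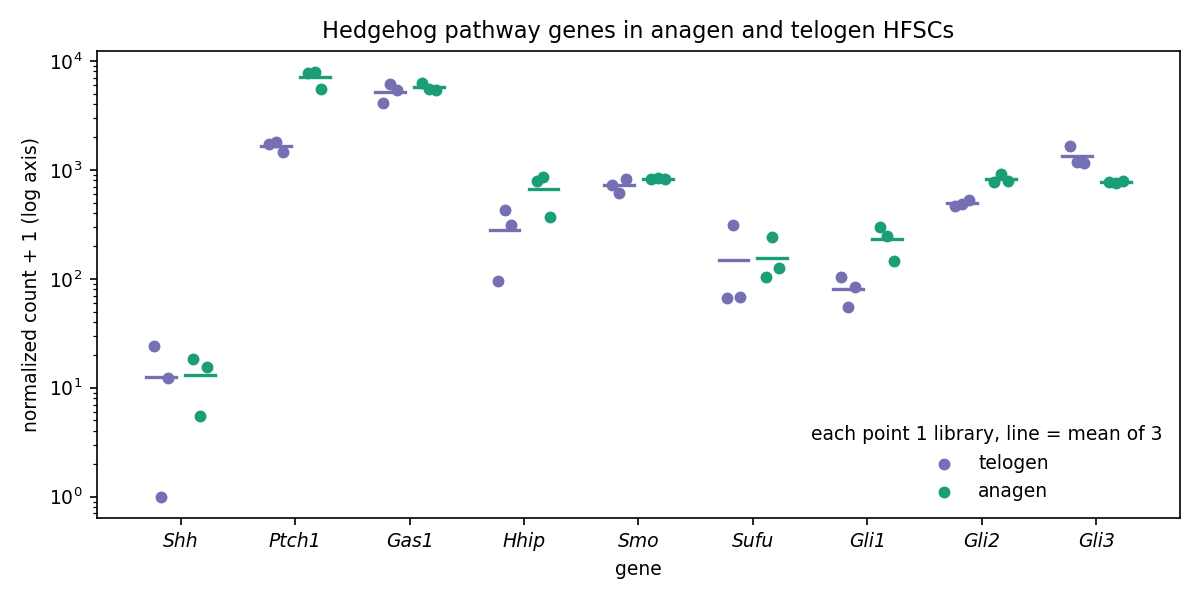
Normalized count + 1 (log axis) of the 9 Hedgehog pathway genes in the 3 telogen and 3 anagen libraries, 1 point per library with a line at the mean of each group. Ptch1 lies between 1465 and 1806 in telogen and between 5473 and 7914 in anagen, and Gli3 is the only gene whose anagen points all lie below its telogen points.

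Shh (ENSMUSG00000002633.4, GRCm38 chromosome 5, 28456815 to 28467256, minus strand) encodes the ligand. Its normalized counts were 23.3, 0 and 11.4 in telogen replicates 1, 2 and 3 and 17.3, 4.47 and 14.6 in anagen replicates 1, 2 and 3. All 6 libraries were low and the groups overlapped. The log2 fold change was 0.79 (limma, SE 1.15, adjusted p = 0.696), and without telogen replicate 2, where the gene is listed at 0, it was -0.58. Of the exon bases of Shh, 28.3% overlap genes on the other strand, and the sources do not state whether counting used the strand.

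Ptch1 (ENSMUSG00000021466.12, chromosome 13, 63508328 to 63573598, minus strand) encodes the Patched receptor. It was counted at 1738, 1806 and 1465 in telogen and at 7823, 7914 and 5473 in anagen. The lowest anagen library was thus above every telogen library. The telogen mean was 1669.7 ± 180.1 (SD, n = 3) and the anagen mean 7069.9 ± 1384 (SD, n = 3), a log2 fold change of 2.07 (limma, SE 0.20, adjusted p = 0.000133) or 4.19-fold with a 95% confidence interval of 3.08 to 5.70. Ptch1 was the only member past the thresholds of the study's methods, an unadjusted p under 0.05 and a log2 fold change over 2, which 5.1% of all genes tested passed. Its adjusted p stayed between 0.000185 and 0.00195 in the 6 fits that each left out 1 library.

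Gas1 (ENSMUSG00000052957.8, chromosome 13, 60174405 to 60177365, minus strand) encodes a membrane-anchored coreceptor that helps ligand reach Patched. Its normalized counts were 4108, 6086 and 5395 in telogen and 6286, 5500.0 and 5458 in anagen. The groups overlapped, and the log2 fold change was 0.16 (95% confidence interval -0.26 to 0.58, adjusted p = 0.628 from limma). Of its exon bases, 19.9% overlap a gene on the other strand.

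Hhip (ENSMUSG00000064325.4, chromosome 8, 79965851 to 80058006, minus strand) encodes a membrane protein that binds and sequesters Hedgehog ligands. It had 93.7, 431 and 313 normalized counts in the telogen libraries and 789.7, 850.4 and 369 in the anagen libraries. Anagen replicates 1 and 2 were above all telogen libraries, while anagen replicate 3 lay below telogen replicate 2. The mean was 279 ± 171 (SD, n = 3) in the telogen libraries and 669.6 ± 262 (SD, n = 3) in those of anagen, and the log2 fold change of 1.43 (SE 0.52) did not pass the test over all genes (adjusted p = 0.102 from limma). It was 0.77 without telogen replicate 1 and 1.87 (adjusted p = 0.0521) without telogen replicate 2.

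Smo (ENSMUSG00000001761.7, chromosome 6, 29735503 to 29761365, plus strand) encodes Smoothened. Its normalized counts were 729, 606 and 821 in telogen and 827, 832 and 829.8 in anagen. The anagen libraries were nearly identical and all lay just above the highest telogen library. The difference was small, with a log2 fold change of 0.22 (95% confidence interval -0.25 to 0.69, adjusted p = 0.547 from limma).

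Sufu (ENSMUSG00000025231.17, chromosome 19, 46396896 to 46488804, plus strand) encodes the cytoplasmic inhibitor that binds GLI proteins. It had 66.1, 309.6 and 67.7 normalized counts in the telogen libraries and 102, 239 and 126 in the anagen libraries. Replicate 2 was the highest library of each group, and the groups overlapped. The log2 fold change was 0.38 (95% confidence interval -0.92 to 1.68, adjusted p = 0.722 from limma). It ranged from 0.0036 without telogen replicate 1 to 1.11 without telogen replicate 2.

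Gli1 (ENSMUSG00000025407.7, chromosome 10, 127329882 to 127341974, minus strand) encodes the GLI factor that acts as an activator and is itself a target of the pathway. It was counted at 102, 54.5 and 83.8 in telogen and at 297, 248 and 145 in anagen. Every anagen library was above every telogen library. The telogen mean was 80.2 ± 24.1 (SD, n = 3) and the anagen mean 230.1 ± 77.8 (SD, n = 3), a log2 fold change of 1.49 (limma, SE 0.41, adjusted p = 0.0387) or 2.81-fold. The adjusted p was 0.181 without anagen replicate 1, 0.148 without anagen replicate 2, 0.0772 without telogen replicate 2 and 0.0645 without telogen replicate 3, while the log2 fold change stayed between 1.24 and 1.79.

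Gli2 (ENSMUSG00000048402.14, chromosome 1, 118834132 to 119053619, minus strand) encodes the main activator through which Hedgehog signals act in skin. Its normalized counts were 467, 488 and 523 in telogen and 772, 923 and 785 in anagen. The groups were far apart compared with the spread within each. The means were 493 ± 28.0 (SD, n = 3) and 827 ± 83.6 (SD, n = 3), and the log2 fold change was 0.74 (limma, SE 0.21, adjusted p = 0.0474) or 1.67-fold. This adjusted p lies close to 0.05, and it rose to between 0.0636 and 0.203 when any library was left out, with a log2 fold change between 0.66 and 0.79.

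Gli3 (ENSMUSG00000021318.15, chromosome 13, 15463235 to 15730026, plus strand) encodes the GLI factor best known as the repressor of the pathway when ligand is absent. It had 1666, 1178 and 1165 normalized counts in the telogen libraries and 772, 752 and 791 in the anagen libraries. The anagen libraries were close together and every one of them lay below the telogen libraries. The telogen mean was 1336 ± 286 (SD, n = 3) and the anagen mean 771 ± 19.6 (SD, n = 3), a log2 fold change of -0.77 (limma, SE 0.21, adjusted p = 0.0413), that is 1.71-fold lower. Without anagen replicate 1, 2 or 3, telogen replicate 1 or telogen replicate 3, the adjusted p was 0.146, 0.145, 0.110, 0.0765 and 0.0505 in this order, and over all leave-one-out fits the log2 fold change stayed between -0.86 and -0.60.

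**Figure D2:**
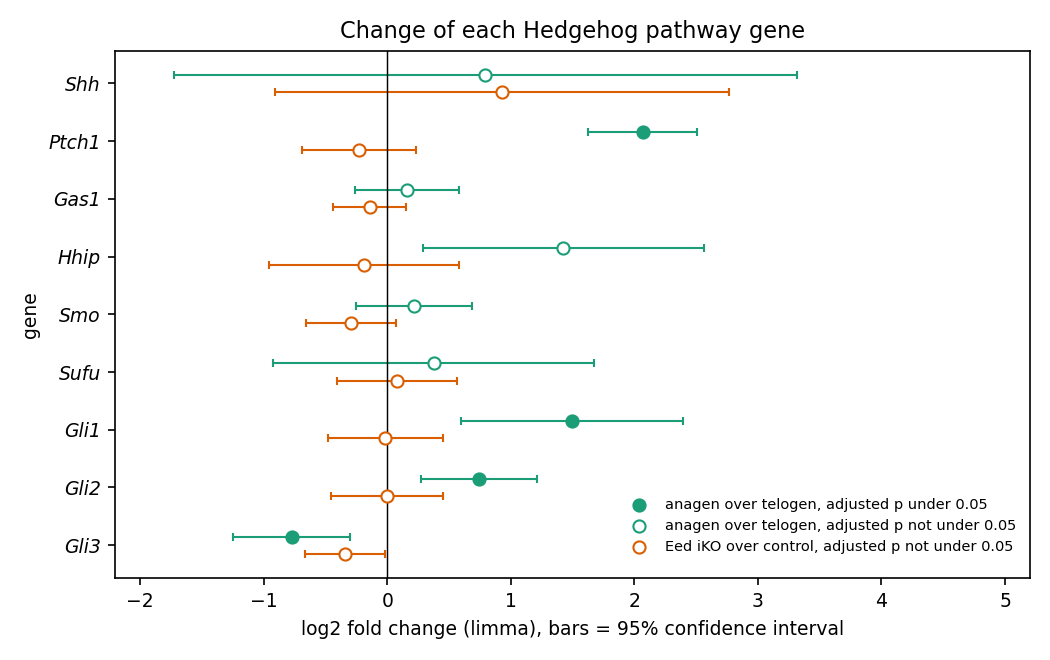
Log2 fold change of the 9 genes with its 95% confidence interval, for anagen over telogen and for Eed iKO over control, each comparison in its own table, filled where the adjusted p is under 0.05. For anagen over telogen the intervals of Ptch1 (1.62 to 2.51), Gli1, Gli2 and Hhip lie above 0 and that of Gli3 below 0, and for Eed iKO over control the only interval that leaves out 0 is that of Gli3 (-0.66 to -0.02).

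The opposite directions of Gli2 and Gli3 were also set side by side within each library, by a ratio chosen after their values were seen. The ratio of Gli2 to Gli3 normalized counts was 0.280, 0.414 and 0.449 in telogen and 1.00, 1.23 and 0.993 in anagen. It was higher in every anagen library than in every telogen library, by 2.86-fold in the geometric mean. No test is given, because genes that moved in opposite directions were chosen for it. The ratio of Ptch1 to Smo, chosen in the same way, averaged 2.38 ± 0.599 (SD, n = 3) over the telogen libraries and 8.52 ± 1.67 (SD, n = 3) over those of anagen. The difference was 3.60-fold in the geometric mean, also given without a test. Both ratios are between counts of genes of different length, so a ratio of 1.00 does not mark equal numbers of transcripts.

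**Figure D3:**
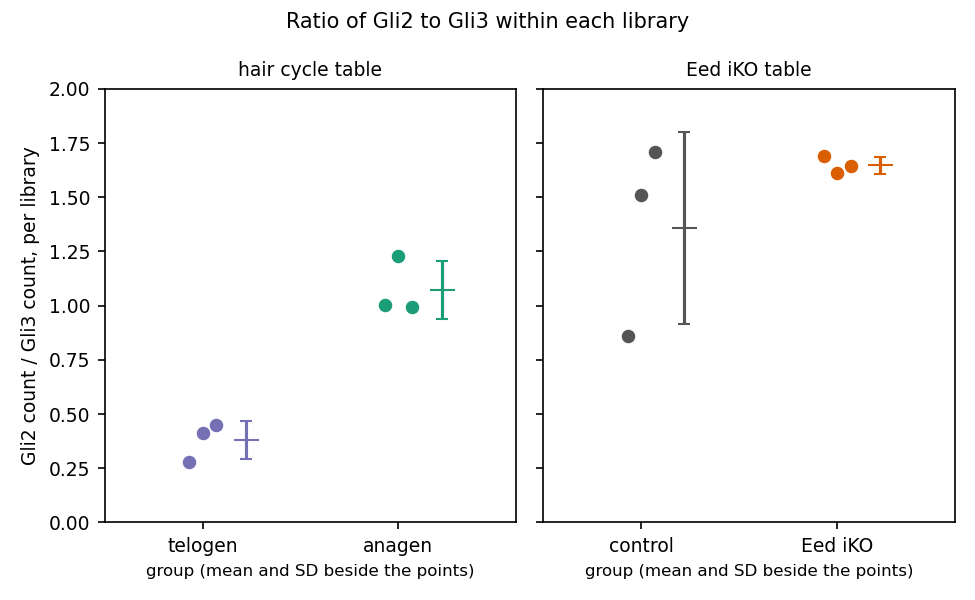
Ratio of Gli2 to Gli3 normalized counts in each of the 12 libraries, 1 point per library with the mean and SD of each group beside the points. The 2 tables are shown apart because they were normalized separately. Only the control and Eed iKO values are whole numbers divided by a constant for each library. The telogen libraries lie at 0.280 to 0.449 and the anagen libraries at 0.993 to 1.23, while the control and Eed iKO libraries overlap, at 0.861 to 1.71 and 1.61 to 1.69.

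Levels were compared between genes after division by the summed exon length of each gene in kilobases. Gas1 had the highest level of the 9 in all 4 groups and Shh the lowest. In telogen, Gas1 stood at 1755 ± 339 (SD, n = 3) normalized counts per kb, followed by Gli3 at 139 ± 29.8, Smo at 128 ± 19.3 and Ptch1 at 118 ± 12.7. The ranges of Gli3 and Smo overlapped, as did those of Smo and Ptch1, so their order in telogen is within the spread of the libraries. In anagen, Ptch1 stood second, at 498 ± 97.6 normalized counts per kb, ahead of Smo at 148 ± 0.469, Gli2 at 120 ± 12.2 and Gli3 at 80.5 ± 2.04, and none of these neighbours overlapped. Below Gli3 the ranges of Gli3, Hhip, Gli1 and Sufu each overlapped the next. With the length of the longest transcript in place of the summed exons, Smo came ahead of Gli3 in telogen and Sufu ahead of Hhip.

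Beyond the 9 members, a list of 43 other pathway genes was examined, grouped as other ligands and release factors, coreceptors and other membrane receptors, proteins of the primary cilium, kinases and degradation factors, and targets reported in other tissues. Of these, 38 were tested in the hair cycle table. At an adjusted p under 0.05, 6 were higher and 0 lower in anagen by limma, and 16, or 42.1%, had an unadjusted p under 0.05, against 27.3% of all genes tested. The share called was 15.8%, against 11.6% of all genes tested. The median log2 fold change was -0.07 over the 38 genes and 0.01 over all genes tested.

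The reported targets held 5 of these 6, out of 7 target genes tested. That is 71.4%, against 7.22% of all genes tested that were higher. The list held 10 targets, and the rest did not pass the filter on low values. It was chosen with earlier results of these data known, so the share is a description only. Mycn, a MYC family transcription factor, had 7.73, 1.11 and 13.9 normalized counts in the telogen libraries and 314, 238 and 149.7 in the anagen libraries, a log2 fold change of 5.11 (limma, SE 0.72, adjusted p = 0.00139). Its lowest anagen library was over all telogen libraries by a wide margin. Foxm1, a transcription factor of the cell cycle, had 91.0, 4.42 and 12 in telogen and 349, 221 and 243 in anagen, with a log2 fold change of 3.84 (adjusted p = 0.0142).

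The cyclin genes Ccnd1 and Ccnd2, which drive entry into the cell cycle, also rose. Ccnd1 went from 1303 ± 485 (SD, n = 3) normalized counts in telogen libraries to 3772 ± 646 (SD, n = 3) in those of anagen, a log2 fold change of 1.58 (adjusted p = 0.00312 from limma). Ccnd2 went from 1926 ± 435 to 5397 ± 796 (SD, n = 3), a 2.83-fold increase (adjusted p = 0.00158 from limma). Sfrp1, a secreted protein known as a modulator of WNT signals, went from 15695 ± 1702 to 28274 ± 2249 (SD, n = 3), a log2 fold change of 0.85 (adjusted p = 0.0108 from limma). Mycn, Ccnd1 and Ccnd2 kept an adjusted p under 0.05 in each of the 11 alternatives. Foxm1 and Sfrp1 kept it in 8 of the 11. Foxm1 lost it without anagen replicate 1 (0.0711), without anagen replicate 3 (0.0527) and without the intensity trend (0.0727), and Sfrp1 without anagen replicate 2 (0.0536), without anagen replicate 3 (0.0616) and without the intensity trend (0.0777).

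Among the 4 coreceptors and other membrane receptors tested, limma called 0, and 2, or 50%, had an unadjusted p under 0.05, against 27.3% of all genes tested. These were the ligand-binding coreceptors Cdon and Boc, named after their values were seen, which had log2 fold changes of -0.46 (adjusted p = 0.123) and -0.55 (adjusted p = 0.0998) and did not pass the test.

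Of the kinases and degradation factors, 1 of 11, or 9.09%, was higher and 0 were lower, against 7.22% and 4.35% of all genes tested. The 1 higher gene was Prkar1a, the regulatory subunit of protein kinase A, the kinase that primes GLI proteins for processing. It went from 4052 ± 1001 to 7039 ± 679 normalized counts (SD, n = 3), a log2 fold change of 0.83 (adjusted p = 0.0319 from limma), which was 0.135, 0.0779 and 0.109 without anagen replicates 1, 2 and 3, 0.0516 with the replicate block and 0.131 without the intensity trend. None of the 10 cilium genes and none of the 6 ligand and release genes tested was called by limma, and 3 and 0 of them had an unadjusted p under 0.05, that is 30% and 0%, against the same 27.3%. Ihh, another Hedgehog ligand, was listed at 0 in all 6 hair cycle libraries.

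**Figure D4:**
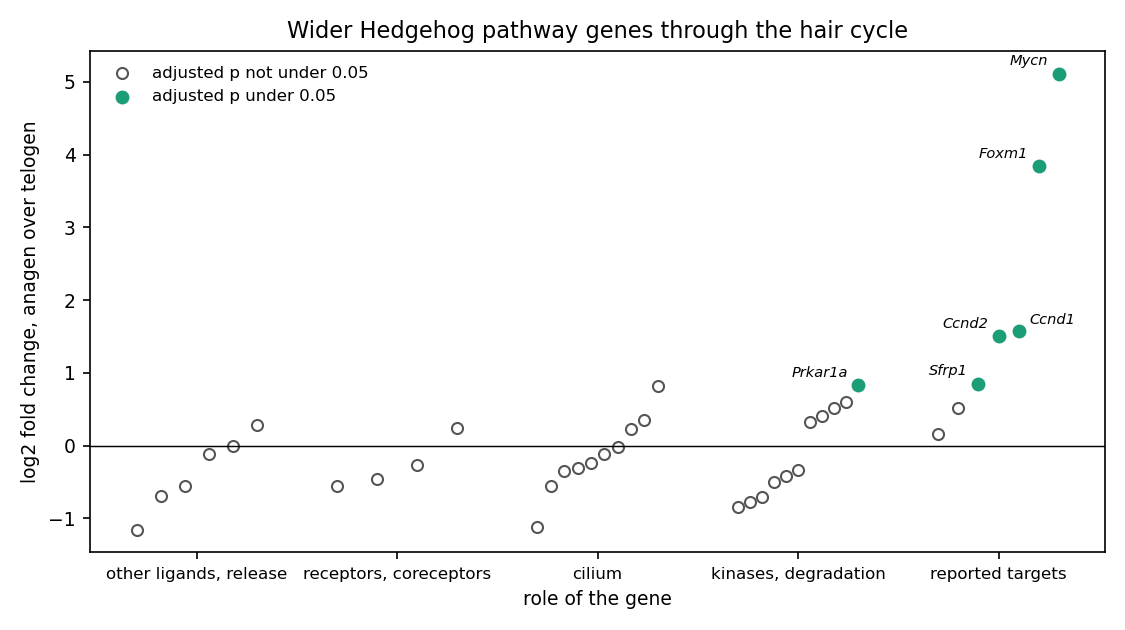
Log2 fold change of anagen over telogen for the 38 tested genes of the wider pathway list, 1 point per gene, grouped by role on the horizontal axis and filled where the adjusted p is under 0.05. The 6 filled points are all above 0, and 5 of them are reported targets, with Mycn at 5.11 and Foxm1 at 3.84.

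The anagen libraries also differed in the cell cycle and in some markers of other cells, whose part in the results above was not tested. All 8 proliferation genes were higher in anagen, where 7.22% of all genes tested were, with a median log2 fold change of 4.95. Their summed normalized counts ranged from 713 to 851 in telogen and from 17986 to 30220 in anagen. Of the dermal fibroblast markers, 3 of 6 tested were higher in anagen, where 7.22% of all genes tested were, and 0 were lower, with a median log2 fold change of 1.65. The 10 dermal markers summed to between 372 and 797 in telogen and between 684 and 858 in anagen, and the defining marker Pdgfrb was listed at 0 in 5 of the 6 libraries. Of the hair matrix markers, 1 of 7 tested was higher and 1 lower, where 7.22% and 4.35% of all genes tested were. Their sums ranged from 2494 to 2660 in telogen and from 3317 to 3930 in anagen. For melanocyte markers the counts were 1 higher and 1 lower of 5 tested, against the same shares of all genes. Their sums were 2882 to 3285 in telogen and 1410 to 1488 in anagen. None of the immune, endothelial or epidermal and sebaceous markers tested (5, 2 and 6 genes) was called by limma. Of them, 0, 0 and 1 had an unadjusted p under 0.05, against 27.3% of all genes tested. The HFSC markers held 1 higher and 1 lower gene of 11, against 7.22% and 4.35% of all genes tested. Both were named after their values were seen, and both encode proteins used in the sort. Itga6, which encodes α6-integrin, was higher (log2 fold change 0.97, adjusted p = 0.0144 from limma), and Cd34 was lower (log2 fold change -1.21).

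The control and Eed iKO libraries compare these genes in quiescent HFSCs without and with induction of Eed loss. Control mice received ethanol and Eed iKO mice RU-486, so the drug, the genotype and a loss of EED cannot be told apart. The targeted gene Eed itself had 1084, 1249 and 950.2 normalized counts in control and 933, 1361 and 1001 in the libraries labelled Eed iKO. Its mRNA was not lower in them, with a log2 fold change of -0.01 (adjusted p = 0.993 from limma), so these libraries are named by their label. The study itself reports lower Eed mRNA by RT-qPCR in sorted Eed iKO HFSCs. It also reports a significant loss of the PRC2 mark H3K27me3 by immunofluorescence at postnatal day 70. Those measurements are not analysed here. A count over the whole gene does not show whether part of the transcript is lost. At an adjusted p under 0.05, 0 of the 9 members differed by limma, where 0.0267% of all genes tested did. By the edgeR and DESeq2 tests on recovered reads, 0 differed as well. Only Gli3 had an unadjusted p under 0.05, as did 14.7% of all genes tested, and 0 members passed the thresholds of the methods, which 1.75% of all genes tested did. The groups overlapped for all 9 members, while 20.2% of all genes tested did not overlap.

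Gli3 had 8897, 8710.1 and 7525 normalized counts in control and 6461, 7628 and 5852 in the libraries labelled Eed iKO. The highest library labelled Eed iKO was just above the lowest control library. The means were 8377 ± 744 (SD, n = 3) and 6647 ± 903 (SD, n = 3), with a log2 fold change of -0.34 (95% confidence interval -0.66 to -0.02) that did not pass the test over all genes (adjusted p = 0.314 from limma).

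The other GLI genes were at nearly the same mean level in both groups. Gli1 had 1232, 1974 and 1415 normalized counts in control and 1331, 1523 and 1649 in the libraries labelled Eed iKO, with a log2 fold change of -0.01 (95% confidence interval -0.48 to 0.45, adjusted p = 0.985 from limma). Gli2 had 7660.1, 13151 and 12852 in control and 10913, 12284 and 9624 in the libraries labelled Eed iKO. Control replicate 1 was the lowest of these, and the log2 fold change was -0.00 (95% confidence interval -0.46 to 0.45, adjusted p = 0.997 from limma). The ratio of Gli2 to Gli3 was 0.861, 1.51 and 1.71 in control and 1.69, 1.61 and 1.64 in the libraries labelled Eed iKO. The groups overlapped (two-sided exact permutation p = 0.4). With 3 libraries in each group this test cannot give a p under 0.1, so it cannot decide whether the ratio differed.

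The receptor genes were likewise within the spread of the libraries. Ptch1 had 6958, 8953 and 5567 normalized counts in control and 7343, 6333 and 4651 in the libraries labelled Eed iKO, a log2 fold change of -0.23 (95% confidence interval -0.69 to 0.24, adjusted p = 0.656 from limma). An increase of the size seen for Ptch1 between telogen and anagen, a log2 fold change of 2.07, lies outside this interval. Smo had 5844, 6453 and 6279 in control and 5401, 5989 and 3985 in the libraries labelled Eed iKO (log2 fold change -0.29, 95% confidence interval -0.66 to 0.07, adjusted p = 0.438 from limma). The lowest Smo value, in Eed iKO replicate 3, stood apart from the other 5 libraries, and the mean ratio of Ptch1 to Smo was 1.15 ± 0.252 in control and 1.19 ± 0.153 in the libraries labelled Eed iKO (SD, n = 3 each). Gas1 had means of 16819 ± 1719 and 15203 ± 763 (SD, n = 3), with a log2 fold change of -0.14 (adjusted p = 0.663 from limma).

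Hhip averaged 462 ± 165 normalized counts in control and 394 ± 94.8 in the libraries labelled Eed iKO (SD, n = 3 each), with a log2 fold change of -0.19 (adjusted p = 0.844 from limma). Sufu had means of 1165 ± 216 and 1232 ± 239 (SD, n = 3), with a log2 fold change of 0.08 (adjusted p = 0.901). Shh rested on 30, 12 and 6 recovered reads in control and 33, 17 and 15 in the libraries labelled Eed iKO, so that counting error alone is large for this gene. In normalized counts these were 20.8, 13 and 5.44 in control and 35.5, 22.6 and 14.8 in the libraries labelled Eed iKO, with a log2 fold change of 0.93 and a 95% confidence interval of -0.90 to 2.77 (adjusted p = 0.642 from limma). The interval holds both decreases and increases.

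**Figure D5:**
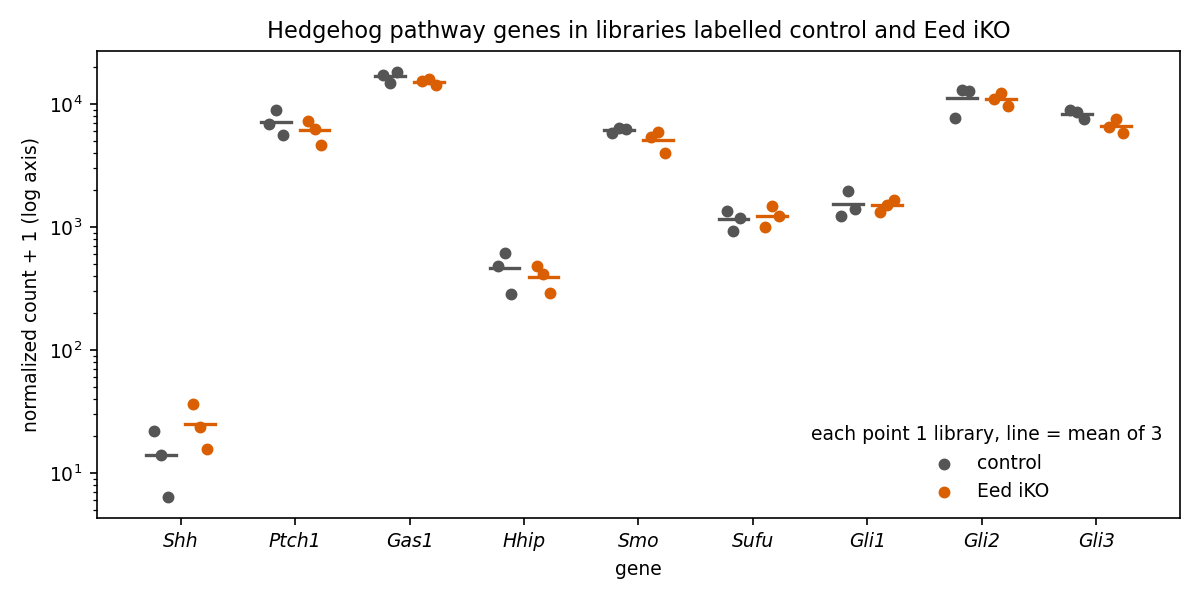
Normalized count + 1 (log axis) of the 9 Hedgehog pathway genes in the 3 libraries labelled control and the 3 labelled Eed iKO, 1 point per library with a line at the mean of each group. The points of both groups overlap for all 9 genes, and Shh is the lowest, at 5.44 to 35.5 normalized counts.

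Per kb of exon, the order of the members was the same in control and in the libraries labelled Eed iKO. Gas1 stood first, at 5680 ± 581 and 5134 ± 258 normalized counts per kb (SD, n = 3), followed by Gli2, Smo, Gli3, Ptch1, Gli1, Sufu, Hhip and Shh. The ranges of Gli2 and Smo overlapped in control and those of Smo and Gli3 in the libraries labelled Eed iKO, and those of Ptch1 and Gli1 in both. In this table, Gli2 ranked above Gli3, at 1634 ± 449 against 874 ± 77.6 normalized counts per kb in control, whereas in telogen it ranked below, at 71.7 ± 4.08 against 139 ± 29.8. The tables were normalized separately, so these levels were not tested against each other.

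Of the wider pathway list, 39 genes were tested in the Eed iKO table, and limma called 0 of them at an adjusted p under 0.05. An unadjusted p under 0.05 was found for 9, or 23.1%, against 14.7% of all genes tested, and the groups did not overlap for 13, or 33.3%, against 20.2%. The edgeR test on recovered reads called 0, and DESeq2 called 4 of the 39, where it called 4.48% of all genes tested. These 4 are named because DESeq2 called them and were thus chosen after their values were seen. Scube2, which helps release lipid-bearing Hedgehog ligand, had 5068, 5619.7 and 6253 normalized counts in control and 3968, 2790.1 and 4072 in the libraries labelled Eed iKO (log2 fold change -0.66, adjusted p = 0.138 from limma and 0.0268 from DESeq2). Hhat, the enzyme that attaches palmitate to the ligand, had means of 746 ± 58.8 and 437 ± 65.0 (SD, n = 3), with an adjusted p of 0.174 from limma and 0.0411 from DESeq2. Prkaca, a catalytic subunit of protein kinase A, had means of 3416 ± 352 and 2277 ± 207 (SD, n = 3), with an adjusted p of 0.138 from limma and 0.0243 from DESeq2.

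Kif7, a kinesin of the ciliary tip that regulates GLI proteins, was the one of the 4 with a positive fold change. It had 769, 984 and 668 normalized counts in control and 1196, 1410.3 and 1435 in the libraries labelled Eed iKO, with a log2 fold change of 0.75 (adjusted p = 0.148 from limma and 0.0323 from DESeq2). The groups did not overlap for any of these 4 genes, where 20.2% of all genes tested did not. This adds no support, since the 4 were chosen by a test on the same libraries. The proliferation genes had a median log2 fold change of 1.17 in this comparison, with 0 of 8 called by limma. Of them, 1 had an unadjusted p under 0.05, against 14.7% of all genes tested. Their sums ranged from 1585 to 4490 in control and from 1191 to 11351 in the libraries labelled Eed iKO. The dermal markers summed to between 1835 and 3414 in control and between 1382 and 2045 in the libraries labelled Eed iKO, and their part in these values was not tested.

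The members were also compared by their pattern over the 12 libraries, on log2(normalized count + 1) centred on the mean of each table. These correlations are descriptions, since the points share groups, tables and libraries. Pearson's r was 0.861 between Gli1 and Ptch1, 0.783 between Gli2 and Ptch1, 0.761 between Gli1 and Gli2, and 0.740 between Ptch1 and Hhip. Gli3 went the other way, with r of -0.681 to Ptch1, -0.675 to Gli2 and -0.623 to Gli1. The most negative value, -0.745, was between Shh and Sufu. Shh counts were low throughout, and telogen replicate 2 held Shh at 0 and Sufu at 309.6, the highest Sufu value of telogen. Among the 13362 genes that passed the filter in both tables, those most like Gli1 were Mastl at 0.949, Ttc7b at 0.948, Tyms at 0.948, Cenpk at 0.941 and Eme1 at 0.936. Those most like Gas1 were Sertad2 at 0.934, Rhou at 0.927, Trim8 at 0.927, Ppp2r1a at 0.922 and AI597479 at 0.918.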

How the data were processed

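RNA of FACS-sorted HFSCs was measured in 12 libraries, 3 for each group, grouped and numbered as in the sample labels. The authors quantified reads on the mouse transcriptome (Gencode vM20) with kallisto 0.42.5 and compared groups with DESeq2, listed as version 3.11 in the submitters' processing notes together with mm10. The deposited signal of each gene and library is a normalized count. It rests on whole numbers in the Eed iKO table, which may be rounded estimates, and on estimated counts in the hair cycle table. The authors' log2 fold changes and p-values are in the same tables and were not used. Normalization was done separately for the 2 tables, and no test crosses them. In the Eed iKO table, 100% of values were whole multiples of 1 constant per library (tolerance 0.1 reads), so these whole numbers, called reads, could be recovered. For hair cycle libraries this held for 19.0% to 25.4% of values, and their depth is unknown.

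Groups were compared with limma 3.58.1 (R 4.3.3, intensity trend) on log2(value + 1) after filterByExpr of edgeR 4.0.16 with a count minimum of 10. Adjusted p-values are Benjamini-Hochberg values over all genes tested, and calls have an adjusted p under 0.05. The scripts were tested on simulated data with changed genes. Alternatives were a pseudocount of 0.1, no filter, the replicate block, each library left out, TMM scaling, no intensity trend, the thresholds of the methods (unadjusted p under 0.05 with a log2 fold change over 1.5 for Eed iKO or 2 for the hair cycle), and edgeR or DESeq2 1.42.0 on recovered reads. Coordinates, exon lengths and overlaps are from GENCODE vM21 (GRCm38), promoters from RefSeq (GRCm38.p6).

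A gene of the wider pathway list is not reported here and is left out of its counts. The 9 members and the lists were chosen with earlier results of these data known. Named are the members, Eed, the genes of the wider pathway list with an adjusted p under 0.05, and the 5 genes most like Gli1 and Gas1 over the 12 libraries. Other genes are named as chosen after their values were seen or as defining markers.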

Additional observations from a re-analysis of the deposited data

How the results depend on the processing

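The adjusted p of Ptch1 stayed under 0.05 in all 11 alternatives, with a log2 fold change between 1.98 and 2.24. Gli1, Gli2 and Gli3 kept their direction in all 11, but their adjusted p stayed under 0.05 in only 5, 1 and 4 of them. The members called in anagen over telogen were 4, and 2 without the filter on low values, 2 with the replicate block, 1 without the intensity trend, 1 by the thresholds of the methods, and 1 to 2 when a library was left out. Of the wider list, 6 were called, 3 without the trend, 2 by the thresholds of the methods, and 3 to 8 when a library was left out, with 3 without anagen replicate 3. Of all genes, 1556 were called, 842 without the trend, 686 by the thresholds of the methods, and 590 to 1534 when a library was left out, with 590 without anagen replicate 1, 675 without anagen replicate 2 and 826 without anagen replicate 3. The log2 fold change of Shh ranged from -0.58 to 1.72 when a library was left out.

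In Eed iKO over control, 0 members were called under any alternative. The wider list went from 0 calls to 1 with the replicate block, which was Scube2 (adjusted p = 0.0369 from limma), and to 4 with DESeq2. Of all genes, 4 were called, 2 without the trend, 424 with the replicate block, 673 with DESeq2, 263 by the thresholds of the methods and 1 to 188 when a library was left out, with 188 without Eed iKO replicate 3. The log2 fold change of Gli2 was 0.0010 with TMM scaling. Leaving out a library moved it between -0.26 and 0.13 for Gli2, -0.16 and 0.18 for Gli1, -0.50 and 0.054 for Hhip, and -0.070 and 0.23 for Sufu. The cause of these changes was not tested.

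Same-numbered libraries deviated from their group means with correlations of 0.039, 0.068 and 0.193 for Eed iKO and control and -0.035, -0.071 and -0.029 for anagen and telogen. Each value rests on a single pair of libraries, so the correlations cannot decide whether the numbers pair the libraries. A shared litter or batch was not tested. With the replicate block, Gli2 and Gli3 had adjusted p values of 0.104 and 0.0777 from limma. Ptch1 remained called at 0.000147, and Gli1 only just, at 0.04999. The unknown depth of the hair cycle libraries limits what can be said of Shh, whose values lie between 0 and 23.3 in all 6 of them.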

Other observations

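Telogen replicate 2 and anagen replicate 2 both held the highest Sufu value of their group, 309.6 and 239 normalized counts, and the lowest Shh value, 0 and 4.47. The tables place the GLI genes differently in telogen and in control. The ratio of Gli2 to Gli3 was 0.280 to 0.449 in telogen at postnatal days 50 to 52 and 0.861 to 1.71 in control at postnatal day 70, and the ratio of Ptch1 to Smo was 2.38 ± 0.599 and 1.15 ± 0.252 (SD, n = 3). The telogen values are ratios of estimated counts and the control values ratios of whole-number counts, from tables normalized separately. They were not tested against each other. The age, the ethanol treatment, the sequencing and the way of counting cannot be told apart.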
